A study of Mus musculus with 60 samples.

Results

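ZT20 lies in the second part of the dark phase, 8 h after lights off and 4 h before lights on. At this time the kidneys of 5 cKOt mice were compared with those of 5 control mice, by RNA-Seq of 1 library per mouse. These 10 samples were all those labelled ZT20 among the 60 of the series, which held 12 groups of 5 mice, 2 genotypes at 6 times of day. The cKOt mice carried Bmal1lox/lox together with Pax8-rtTA and LC-1 Cre, so that doxycycline (DOX) switches on Cre in cells with an active Pax8 promoter, which in the kidney is the tubular epithelium. The control mice were littermates with Bmal1lox/lox alone, and all mice of both genotypes were males on the C57BL/6J background. From an age of 8 weeks both genotypes drank DOX (2 mg/ml with 20 mg/ml sucrose) for 2 weeks, and the kidneys were taken 4 weeks after its end. The labels call the tissue renal tubule, whereas the methods of the study describe a piece of the whole left kidney, so cells without Cre contributed to every library. In each group the 5 mice had been selected by the study out of more, and the rest are not analysed here.

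BMAL1, the product of Arntl, pairs with CLOCK or NPAS2 and activates genes with an E-box in their promoters, among them those of the Period and Cryptochrome repressors, which then inhibit the pair. In a side loop, REV-ERB repressors (Nr1d1, Nr1d2) and ROR activators such as that of Rora compete for ROR elements, through which they act on Arntl, Npas2 and Cry1. A further arm holds the bZIP factors DBP, TEF and HLF, which bind D-boxes, and their competitor NFIL3. In the kidney this clock is known to bear on the transport of salt, water and metabolites along the tubule and on the fuel use of the proximal tubule.

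The libraries at ZT20 held 18275462 to 20634233 counts on genes, with a median of 18925560. Scaling factors of the trimmed mean of M values (TMM) did not overlap between the genotypes, at 0.917 to 0.976 in control mice and 1.02 to 1.07 in cKOt mice. The share of counts on mitochondrial genes was 9.07% to 11.4% in control mice and 8.28% to 8.83% in cKOt mice, and the 10 highest genes took 14.7% to 17.3% and 13.3% to 14.4%. Control replicate 2 stood apart from the other libraries on the second factor of unwanted variation (3.16, against -1.21 to 0.439 in the other 9). The sample sheet of the study gives a batch number to each mouse, without saying which step it refers to. Batches 2, 3 and 4 held 1 mouse of each genotype, batch 5 held 2 control mice, and batches 1 and 6 held 1 cKOt mouse each. The part of the scaling and of these shares in the results was not tested. The genotype differences at ZT20 and the counts of calls were computed again without each library in turn. For the comparison of ZT20 with the other times of day, this is given for the counts alone and not for single genes. A fit of the 3 shared batches alone is given last.

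Promoter sequence is shown for the target gene and for 2 clock genes that rose, because their windows differ in the motifs they hold. RefSeq promoter windows on GRCm38.p6 run from 250 bases before the start of a transcript to 50 bases after it. They were found for 32 of the 39 clock genes and genes with the largest changes. Bhlhe40, Per2, Slc7a12, Arg2, C4a, Ces1d and Cyp4a12a had no entry. Both strands were searched for the E-box CACGTG, the D-box TTATGNAA and the ROR element, AAN followed by TAGGTCA or TGGGTCA, and no 2 matches overlapped. Of all 32851 windows, 7.15% held an E-box, 3.38% a D-box and 0.435% a ROR element. A match is a run of letters and was not tested as a binding site. Capitals mark the matches in the lines that follow, all 5′ to 3′ on the strand of the gene.
Arntl, the ROR element with 10 bases on each side, which begins 73 bases after the first annotated start (chr7:113207528-113207557, plus strand): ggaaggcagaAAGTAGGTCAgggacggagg
Arntl, the bases of its first window before any annotated start, with none of the 3 motifs (chr7:113207215-113207464, plus strand): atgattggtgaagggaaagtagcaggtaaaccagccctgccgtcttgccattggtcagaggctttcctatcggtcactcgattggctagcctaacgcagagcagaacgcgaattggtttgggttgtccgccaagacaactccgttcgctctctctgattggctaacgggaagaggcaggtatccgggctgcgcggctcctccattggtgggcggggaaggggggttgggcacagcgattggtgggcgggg
Cry1, the bases of its window before any annotated start inside it, with 1 E-box (chr10:85185065-85185304, minus strand): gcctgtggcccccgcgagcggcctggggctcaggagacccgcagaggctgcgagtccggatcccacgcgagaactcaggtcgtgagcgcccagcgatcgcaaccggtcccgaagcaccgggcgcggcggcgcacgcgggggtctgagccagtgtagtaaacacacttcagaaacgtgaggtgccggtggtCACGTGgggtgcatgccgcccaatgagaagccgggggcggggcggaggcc
Npas2, the bases of its window before any annotated start inside it, with none of the 3 motifs (chr1:39194022-39194211, plus strand): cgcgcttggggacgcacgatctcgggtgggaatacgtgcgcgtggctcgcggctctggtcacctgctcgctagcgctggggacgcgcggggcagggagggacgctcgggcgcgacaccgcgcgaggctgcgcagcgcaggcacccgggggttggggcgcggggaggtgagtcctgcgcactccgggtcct
The printed Npas2 window lies inside the gene, downstream of its first annotated start at 39193731. The windows of Cry2 and Nr1d2, which also passed the test described next, held none of the 3 motifs either. Among the other clock genes, Ciart had 3 E-boxes, Bhlhe41 had 1, Tef had 1 in each of its 2 windows, Per1 had 1 E-box and 1 D-box, and Per3 had 2 D-boxes. Among the genes with the largest changes, Aqp8 and Nkain1 had 1 E-box each, Hao2, Cyp2a5, Cyp2a4 and 1 of the windows of Synpr had 1 D-box each, and Bhmt had 1 ROR element. In all, 15 of the 42 windows searched held a motif.

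Of the 5 tested clock activators reported here, 1 rose and 1 fell in cKOt mice at ZT20 (40.0%), where the threshold for a call was 0.05 for the p of edgeR's quasi-likelihood test, adjusted by Benjamini and Hochberg over 15546 genes. In the same test 13.8% of all genes were called, 5.98% higher and 7.79% lower. Levels are given in CPM (counts per 1000000 counts of the TMM-scaled library), in the order of the replicates 1 to 5, and fold changes on the log2 scale as cKOt against control. Standard errors were derived from the test, as the absolute log2 fold change over the square root of its F statistic. Gene positions are on GRCm38, from the GENCODE annotation.

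The targeted gene Arntl (ENSMUSG00000055116, chromosome 7, 113207465 to 113314126, plus strand) was lower in cKOt mice. Control mice had 46.4, 43.7, 50.8, 51.6 and 43.8 CPM, and cKOt mice 21.5, 25.1, 24.3, 24.0 and 22.7 CPM. The genotypes were fully separate, and the spread within either genotype was small. The means were 47.2 ± 3.78 and 23.5 ± 1.42 CPM (SD, n = 5 each), with a log2 change of -0.96 (standard error 0.19, edgeR adjusted p = 0.000202). The count takes in all exons of the gene, so these values do not show whether the floxed part was missing from the transcripts that remained. In bulk kidney, fewer cells of a type and less RNA per cell cannot be told apart, here and in all results that follow.

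Npas2 (ENSMUSG00000026077, chromosome 1, 39193731 to 39363236, plus strand), which encodes an alternative partner of BMAL1, was higher in cKOt mice. Its values were 12.9, 11.2, 22.5, 18.6 and 12.5 CPM in control mice and 46.9, 51.4, 44.0, 47.0 and 45.7 CPM in cKOt mice. The 5 cKOt mice lay close together and well above the highest control mouse, with a log2 change of 1.63 (standard error 0.20, edgeR adjusted p = 7.95e-09). Clock, Rora and Arntl2 did not pass the test, with log2 fold changes of 0.11, -0.15 and -0.0092 and edgeR adjusted p of 0.513, 0.41 and 0.982.

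Among the 10 clock repressors, the 2 Cryptochromes rose, Nr1d2 fell and 7 were not called (30% called, against 13.8% of all genes). Cry1 (ENSMUSG00000020038, chromosome 10, 85131700 to 85185064, minus strand) had 27.4, 25.0, 19.9, 19.8 and 23.4 CPM in control mice and 38.6, 37.4, 33.8, 34.0 and 30.8 CPM in cKOt mice, without overlap and with a log2 change of 0.60 (standard error 0.10, edgeR adjusted p = 9.74e-06). For Cry2 (ENSMUSG00000068742, chromosome 2, 92403646 to 92434043, minus strand) the control mice had 28.7, 31.6, 24.4, 28.9 and 27.0 CPM and the cKOt mice 42.8, 36.2, 35.0, 41.3 and 39.0 CPM. These groups were separate as well, with a log2 change of 0.49 (standard error 0.065, edgeR adjusted p = 6.88e-08). The largest change of the 10 was that of Nr1d2 (ENSMUSG00000021775, chromosome 14, 18204054 to 18239127, minus strand), the gene of REV-ERBβ. It had 49.2, 58.0, 54.4, 47.0 and 47.7 CPM in control mice and 27.7, 18.3, 18.5, 16.4 and 20.1 CPM in cKOt mice, and all 5 cKOt mice lay below the control mice. Its log2 change was -1.38 (standard error 0.15, edgeR adjusted p = 1.85e-10).

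The Period genes gave no call at ZT20. Per1 was at 11.2 to 14.8 CPM in control and 8.47 to 22.0 CPM in cKOt mice, Per2 at 32.5 to 77.2 CPM in control and 55.0 to 72.7 CPM in cKOt mice and Per3 at 10.3 to 17.3 CPM in control and 8.99 to 12.6 CPM in cKOt mice, with log2 fold changes of 0.26, 0.17 and -0.42 and edgeR adjusted p of 0.515, 0.556 and 0.0878. The ranges overlapped in all 3. Nr1d1, the gene of REV-ERBα, was at 2.15 to 7.51 CPM in control and 1.36 to 4.61 CPM in cKOt mice, and 1 cKOt mouse with 4.61 CPM lay above 4 of the control mice. Its log2 fold change was -0.83 (edgeR adjusted p = 0.0712). It was called by the DESeq2 Wald test, by limma and without control replicate 1 or cKOt replicate 1 (adjusted p down to 0.0162), and its value was -0.51 without control replicate 3 and -1.16 without cKOt replicate 1. Ciart, which encodes the repressor CHRONO, was lower still at 0.613 to 1.64 CPM in control and 0.261 to 0.932 CPM in cKOt mice (-1.21, edgeR adjusted p = 0.0786). Ciart was called by the DESeq2 Wald test, by limma and without control replicate 3 or cKOt replicate 1 (adjusted p down to 0.0201). For Bhlhe40 and Bhlhe41, the DEC repressors, the log2 fold changes were -0.29 and -0.09 (edgeR adjusted p = 0.216 and 0.865). Per3 and Bhlhe40 were called without control replicate 3 alone among the alternatives (adjusted p = 0.0212 and 0.0417).

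None of the 4 bZIP factors was called, against 13.8% of all genes. Tef had 227, 242, 217, 224 and 228 CPM in control mice and 208, 192, 205, 185 and 210.5 CPM in cKOt mice, so that the groups did not overlap, yet its log2 fold change of -0.17 had an edgeR adjusted p of 0.244. The other values were 0.14 for Dbp (adjusted p = 0.812), -0.077 for Hlf (0.583) and 0.49 for Nfil3 (0.287), all from the same edgeR test. Dbp was at a low level in both genotypes, at 1.47 to 2.46 CPM in control and 1.8 to 3.35 CPM in cKOt mice.

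**Figure D1:**
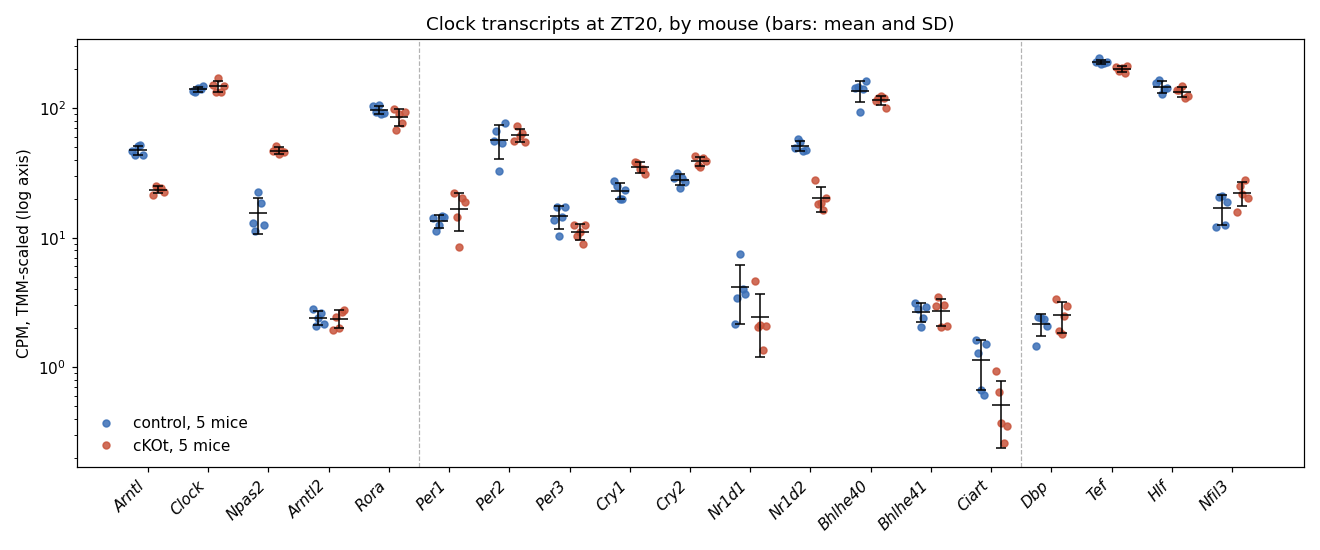
Levels of the 19 tested clock transcripts at ZT20 in CPM on a log axis, with 1 point per mouse (5 control, 5 cKOt) and the mean and SD as bars; dashed lines part activators, repressors and bZIP factors. Arntl and Nr1d2 are lower in all 5 cKOt mice (21.5 to 25.1 and 16.4 to 27.7 CPM) and Npas2 is higher in all 5 (44.0 to 51.4 CPM), while most other pairs overlap.

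Over all 15546 tested genes, 2140 were called at ZT20, 929 higher and 1211 lower in cKOt mice. The median log2 fold change of all genes was 0.0079 and the median absolute value of the called ones 0.34. A change of at least 2-fold was found for 96 of the higher and 161 of the lower genes. The 5 mice of each genotype did not overlap in 1067 genes (6.86%), 471 with all cKOt mice above (3.03%) and 596 with all below (3.83%), and 946 of these 1067 were called as well.

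Most of the 10 genes with the largest increases, among called genes that averaged 1 CPM or more and had no overlap of the genotypes, had little expression in control kidneys. Vmn1r32 (ENSMUSG00000062905, chromosome 6, 66552180 to 66560096, minus strand), a vomeronasal receptor gene, had 0 counts in each of the 5 control mice and 78 to 121 counts in the cKOt mice, or 4.33, 5.06, 4.13, 4.18 and 6.14 CPM. Set against a floor of 3 counts per library, it was at least 29.3-fold higher in cKOt mice (edgeR adjusted p = 3.3e-19). Over all 6 times, the 30 control mice had at most 2 counts and the 30 cKOt mice 61 to 172. Slc7a12 (ENSMUSG00000039710, chromosome 3, 14480697 to 14505830, plus strand), an amino acid transporter gene known for higher expression in female than in male mouse kidney, was at 1.07, 0.589, 1.94, 1.17 and 2.45 CPM in control mice and at 64.9, 79.7, 30.9, 54.1 and 66.6 CPM in cKOt mice, all of them male. The lowest cKOt mouse was 12.6-fold above the highest control mouse, with a log2 change of 5.32 (standard error 0.39, edgeR adjusted p = 9.89e-16). Hao2 (ENSMUSG00000027870, chromosome 3, 98874521 to 98893239, minus strand), which encodes a peroxisomal hydroxyacid oxidase, was the most abundant of the 10 at 97.7, 111, 153, 115 and 93.8 CPM in control and 1062, 1282, 1017, 866 and 1007 CPM in cKOt mice, without overlap and with a log2 change of 3.18 (standard error 0.14, edgeR adjusted p = 3.47e-24).

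Fgg (ENSMUSG00000033860, chromosome 3, 83007724 to 83015049, plus strand), the fibrinogen γ chain gene, had 7.79, 4.02, 4.96, 5.24 and 4.63 CPM in control mice and 87.4, 59.9, 40.3, 51.1 and 59.4 CPM in cKOt mice, a log2 change of 3.36 (standard error 0.24, edgeR adjusted p = 2.28e-16). The other 6 genes with the largest increases were Fhad1 (ENSMUSG00000051435, chromosome 4, 141890438 to 142015082, minus strand), the lysyl oxidase gene Loxl4 (ENSMUSG00000025185, chromosome 19, 42593982 to 42612813, minus strand), the aquaporin gene Aqp8 (ENSMUSG00000030762, chromosome 7, 123462291 to 123468004, plus strand), the betaine-homocysteine methyltransferase gene Bhmt (ENSMUSG00000074768, chromosome 13, 93616675 to 93637961, minus strand), the mitochondrial arginase gene Arg2 (ENSMUSG00000021125, chromosome 12, 79130777 to 79156301, plus strand) and the collagen VI chain gene Col6a6 (ENSMUSG00000043719, chromosome 9, 105687809 to 105828160, minus strand). Their log2 fold changes were 4.21, 2.94, 2.92, 2.81, 2.77 and 2.19. Loxl4 had 3.78, 3.11, 6.34, 5.19 and 4.46 CPM in control and 43.3, 35.1, 34.3, 32.7 and 38.5 CPM in cKOt mice, and Arg2 had 5.42, 2.79, 5.62, 5.97 and 3.92 CPM and 38.6, 34.5, 36.0, 25.2 and 33.6 CPM. In both genes the spread within each genotype was small beside the distance between them.

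The largest decreases included 3 cytochrome P450 genes. Cyp2a5 (ENSMUSG00000005547, chromosome 7, 26835305 to 26843548, plus strand) had 168, 151, 92.8, 134 and 105 CPM in control mice and 4.8, 4.66, 6.41, 8.52 and 6.29 CPM in cKOt mice, with a log2 change of -4.38 (standard error 0.30, edgeR adjusted p = 4.75e-17). Its near-identical copy Cyp2a4 (ENSMUSG00000074254, chromosome 7, 26307169 to 26315088, plus strand) had 591, 456, 458, 615 and 452 CPM and 44.8, 71.4, 51.6, 88.7 and 69.9 CPM, a log2 change of -2.99 (standard error 0.18, edgeR adjusted p = 1.49e-19). Reads could be split between the 2 genes, so their single values are uncertain. The same holds for Cyp4a12a (ENSMUSG00000066071, chromosome 4, 115299046 to 115332815, plus strand), a fatty acid hydroxylase gene with a close copy in Cyp4a12b, which had 216, 334, 161, 127 and 285 CPM in control mice and 35.5, 18.0, 32.6, 43.9 and 16.8 CPM in cKOt mice. Its log2 change was -2.61 (standard error 0.39, edgeR adjusted p = 9.2e-07).

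Ces1d (ENSMUSG00000056973, chromosome 8, 93166068 to 93197838, minus strand), a carboxylesterase gene, fell, with 585, 672, 455, 529.9 and 521 CPM in control and 121, 63.8, 85.9, 49.4 and 45.2 CPM in cKOt kidneys and a log2 change of -2.91 (standard error 0.20, edgeR adjusted p = 4.75e-17). Synpr (ENSMUSG00000056296, chromosome 14, 13284780 to 13616340, plus strand), which encodes the vesicle protein synaptoporin, varied widely among control mice, at 47.5, 91.9, 32.8, 10.5 and 57.4 CPM, and was at 1.26, 1.15, 4.5, 1.78 and 0.355 CPM in cKOt mice. The lowest control mouse was above the highest cKOt mouse, which the choice of these genes required (-4.28, standard error 0.72, edgeR adjusted p = 1.16e-05). The scaffold gene Anks1b (ENSMUSG00000058589, chromosome 10, 89873509 to 90973300, plus strand), Angptl7 (ENSMUSG00000028989, chromosome 4, 148495183 to 148500460, minus strand), the complement gene C4a (ENSMUSG00000015451, chromosome 17, 34809092 to 34823464, minus strand), the plasma glycoprotein gene Hrg (ENSMUSG00000022877, chromosome 16, 22951072 to 22961656, plus strand) and Nkain1 (ENSMUSG00000078532, chromosome 4, 130531602 to 130574173, minus strand) completed the 10. Their log2 fold changes were -4.05, -3.34, -3.21, -2.97 and -2.82, and C4a is uncertain beside its copy C4b. In cKOt mice 3 of these, Anks1b, Hrg and C4a, were near the limit of detection, at 0.152 to 0.90 CPM, 0.559 to 1.0 CPM and 0.71 to 1.45 CPM.

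**Figure D2:**
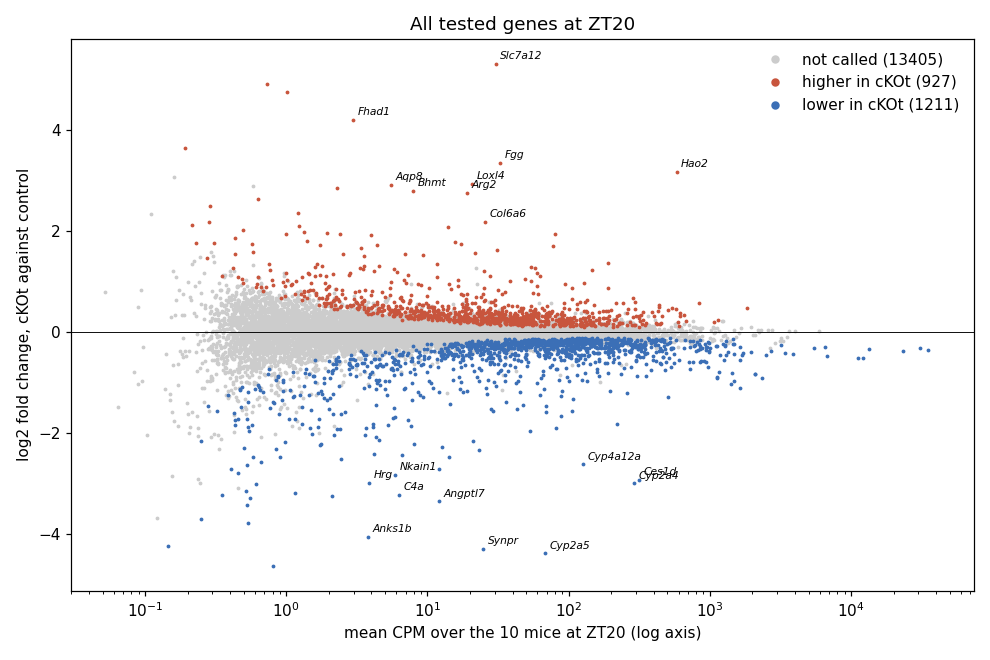
Log2 fold change (cKOt against control) at ZT20 over the mean CPM of the 10 mice on a log axis, with 1 point per tested gene; 3 genes with a group at 0 in all 5 mice, Vmn1r32 among them, are left out. The other genes named for their size of change are labelled and run from Slc7a12 at 5.32 to Cyp2a5 at -4.38, while most of the called genes lie near 0.

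Transcripts of fatty acid uptake and mitochondrial oxidation were lower in cKOt mice. Of 28 tested, 19 fell and 1 rose (71.4% called, against 13.8% of all genes), and the median log2 fold change was -0.27. This and the other lists were chosen with earlier results of these data known, and this one holds genes that the study reports as reduced. Their shares beside that of all genes therefore describe the lists and do not test them. In 14 of the 28 all cKOt mice lay below all control mice, and in 1 all lay above, against 3.83% and 3.03% of all genes. Cd36, the gene of a fatty acid translocase, had 1159.6, 1212, 998, 989.7 and 1189 CPM in control mice and 672, 730.0, 844, 682 and 653 CPM in cKOt mice, a log2 change of -0.58 (standard error 0.089, edgeR adjusted p = 2.31e-06). Slc27a2, a fatty acid transporter and acyl-CoA synthetase gene of the proximal tubule, was at 3738 to 4072 CPM in control mice against 2617 to 3103 CPM (-0.41, edgeR adjusted p = 3.02e-07).

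The carnitine shuttle carries fatty acids into mitochondria, and all 4 of its genes on the list fell. Cpt1a, which encodes the transferase of the outer membrane, had 529, 528, 524, 546 and 545 CPM in control and 361, 324, 342, 369 and 349 CPM in cKOt mice, with a log2 change of -0.61 (standard error 0.07, edgeR adjusted p = 1.75e-09). The carrier gene Slc25a20 had 58.7, 64.2, 62.3, 63.3 and 62.6 CPM and 34.1, 27.1, 25.3, 27.8 and 25.0 CPM, with a log2 change of -1.19 (standard error 0.11, edgeR adjusted p = 7.3e-12). Cpt2, the transferase of the inner membrane, and Crat, the carnitine acetyltransferase, had log2 fold changes of -0.79 and -0.46 (edgeR adjusted p = 2.86e-09 and 2.45e-07). None of the 4 overlapped between the genotypes, although for Crat the lowest control mouse (133 CPM) and the highest cKOt mouse (132 CPM) nearly met.

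Within the mitochondrial matrix, Acadl, a long-chain acyl-CoA dehydrogenase gene, had 479.8, 457, 461, 439 and 455 CPM in control mice and 266, 269, 264, 229 and 235 CPM in cKOt mice, a log2 change of -0.86 (standard error 0.064, edgeR adjusted p = 9.89e-16). Acadm, the medium-chain enzyme, did not pass the test (-0.17, edgeR adjusted p = 0.176), and its values overlapped. The largest decrease of the list was that of Ucp2, an uncoupling protein gene of the inner membrane, with 83.1, 79.9, 113, 134 and 92.7 CPM against 55.4, 28.8, 30.6, 33.7 and 35.5 CPM and a log2 change of -1.58 (standard error 0.14, edgeR adjusted p = 4.4e-13). The 1 member that rose was Acsm1, a medium-chain acyl-CoA synthetase gene, at 159 to 214 CPM in control mice against 259.9 to 320.2 CPM (0.58, edgeR adjusted p = 1.09e-06).

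Peroxisomal oxidation and target genes of the PPAR receptors gave a like count, with 18 of 29 lower and 1 higher. In all 65.5% were called, against 13.8% of all genes, and the median was -0.46. Acaa1b, a peroxisomal thiolase gene, had 101, 144, 156, 214 and 136 CPM in control mice and 92.7, 54.8, 49.9, 52.1 and 66.4 CPM in cKOt mice, a log2 change of -1.32 (standard error 0.15, edgeR adjusted p = 2.06e-09), and may share reads with its copy Acaa1a. Abcd3, the gene of a peroxisomal membrane transporter, was at 671 to 802 CPM and 444 to 555 CPM (-0.54, edgeR adjusted p = 9.09e-10). Of the receptors, Ppara had 77.2, 70.5, 69.7, 75.8 and 70.2 CPM in control mice and 56.7, 51.8, 55.4, 46.8 and 45.8 CPM in cKOt mice, a log2 change of -0.47 (standard error 0.10, edgeR adjusted p = 0.000317). Ppard was the member that rose, with 23.1, 28.0, 53.5, 50.4 and 30.7 CPM in control mice and 185, 92.3, 91.7, 112 and 114 CPM in cKOt mice and a log2 change of 1.71 (standard error 0.19, edgeR adjusted p = 9.08e-10). Its lowest cKOt mouse had 91.7 CPM and its highest control mouse 53.5 CPM. Pparg, at 2.45 to 3.65 CPM in control and 1.67 to 3.35 CPM in cKOt mice, did not pass the test (-0.38, edgeR adjusted p = 0.208).

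Of the 6 genes of carnitine synthesis and transport 3 fell (50% called, against 13.8% of all genes). Slc22a5, which encodes the apical carnitine transporter OCTN2, had 239, 311, 266, 267 and 276 CPM in control mice and 137, 115, 128, 115 and 108 CPM in cKOt mice, a log2 change of -1.17 (standard error 0.10, edgeR adjusted p = 3.19e-13). Aldh9a1, an enzyme of carnitine synthesis, had 626, 646, 553, 617 and 589 CPM and 371, 379.5, 341, 346 and 364 CPM, a log2 change of -0.74 (standard error 0.052, edgeR adjusted p = 2.05e-16). Bbox1, the last enzyme of that pathway, was at 0.511 to 1.14 CPM in control and 0.732 to 1.45 CPM in cKOt mice in these male kidneys and was not called (0.29, edgeR adjusted p = 0.677).

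Beside these lists, the markers of the proximal tubule, the segment in which most of these transcripts are known to be expressed, moved as well. Of 12 markers 5 fell and 1 rose (50% called, against 13.8% of all genes). Their summed level was 19930 to 23320 CPM in control and 17560 to 18830 CPM in cKOt kidneys. Those that fell were Miox (-0.89), Slc13a3 (-0.68), Slc27a2, Slc22a6 (-0.36) and Slc7a13 (-0.34), and Slc5a12 rose (0.33), a call lost without cKOt replicate 5 (adjusted p = 0.0512). The call of Slc5a12 was also lost without the factors of unwanted variation, with the batch in their place and with the 3 shared batches (adjusted p up to 0.486). Lrp2, Cubn, Slc34a1, Slc5a2, Gatm and Keg1 were not called. The part of the proximal tubule in the lower lipid transcripts was not tested.

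**Figure D3:**
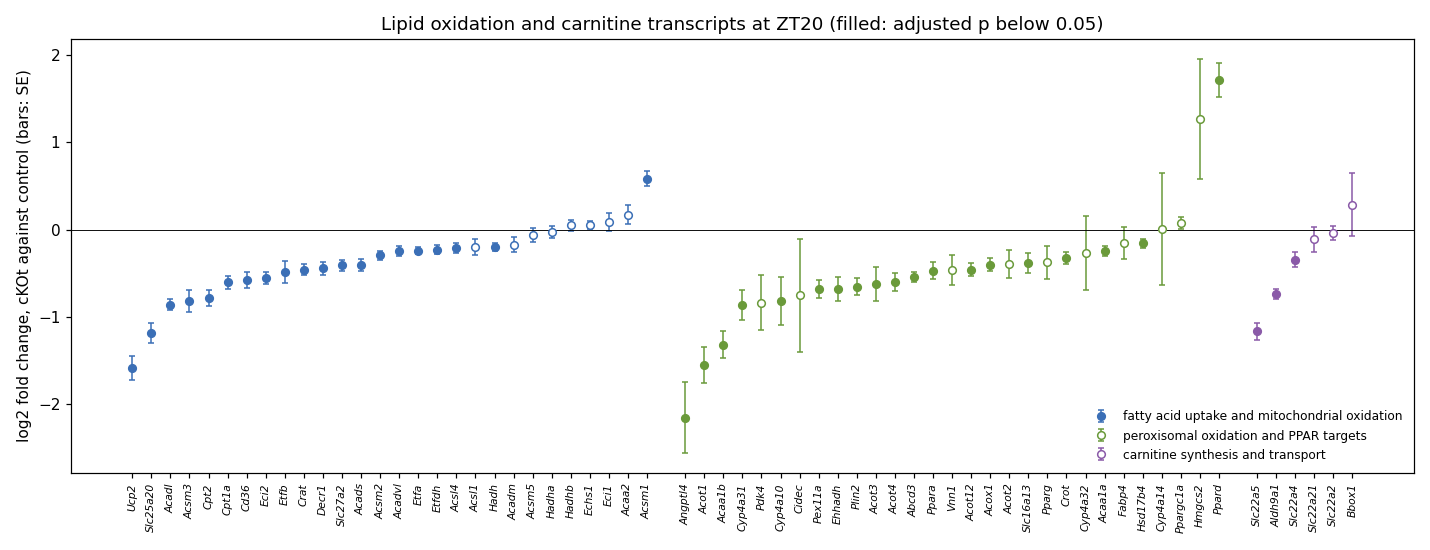
Log2 fold change (cKOt against control) at ZT20 with its standard error for the tested members of the 3 lists of lipid oxidation and carnitine, sorted within each list; filled points passed an adjusted p below 0.05. Most members lie below 0, with 19 of 28, 18 of 29 and 3 of 6 called lower, and Ppard at 1.71 is the highest.

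Enzymes of NAD synthesis and use were called at a share near that of all genes, with 2 of 28 higher and 2 lower (14.3%) and a median of -0.0030. Nampt, the rate-limiting enzyme of NAD salvage, had 309.9, 259, 219.5, 224 and 229 CPM in control mice and 156, 169, 170.1, 164 and 158 CPM in cKOt mice. The 5 cKOt mice were within 14 CPM of each other and below every control mouse, with a log2 change of -0.58 (standard error 0.056, edgeR adjusted p = 8.19e-12). Nadk, the NAD kinase gene, was lower as well (-0.26, edgeR adjusted p = 5.63e-06). Kmo and Qprt, both of the kynurenine route to NAD, were higher, at 0.45 and 0.19 (edgeR adjusted p = 1.39e-08 and 0.0176). The call of Qprt was lost without control replicate 1 or cKOt replicate 4 (adjusted p up to 0.109). It was also lost without the factors of unwanted variation, with 1 factor and with the batch in their place. The same held with the ZT20 libraries alone and with the 3 shared batches (adjusted p up to 0.635). Nmrk1 and Nt5e gave 0.011 and 0.32 and were not called (edgeR adjusted p = 0.971 and 0.0843). Nt5e was called without control replicate 1 (adjusted p = 0.039).

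In the list of sodium, potassium and water transport 9 of 40 rose and 5 fell, with a median of 0.052. This was 35.0% called, against 13.8% of all genes (5.98% higher and 7.79% lower). Without cKOt replicate 4 or 5 the number that rose was 5 and 4. Scnn1b and Scnn1g, 2 subunits of the epithelial sodium channel, rose by 0.38 and 0.26 on the log2 scale (edgeR adjusted p = 0.000112 and 0.00648). For Scnn1b the control mice had 26.5, 33.6, 32.2, 41.6 and 34.7 CPM and the cKOt mice 49.7, 44.5, 39.1, 44.6 and 38.9 CPM, which overlap. Kcnj1, the potassium channel ROMK, and Slc12a3, the thiazide-sensitive cotransporter NCC, were at 0.33 and 0.20 (edgeR adjusted p = 0.0016 and 0.0368). The call of Slc12a3 was lost without any 1 of 5 mice, control replicates 1, 3 and 5 and cKOt replicates 4 and 5 (adjusted p up to 0.215). It was also lost without the filter on low counts, with 1 or no factor of unwanted variation and with the batch in their place. The same held with the ZT20 libraries alone and with the 3 shared batches (adjusted p up to 0.604). Among those that fell were Aqp6 (-0.49), Aqp3 (-0.30) and Cul3 (-0.21), the last a ubiquitin ligase scaffold that acts on the WNK kinases. The calls of Aqp6, Cul3, Scnn1b, Scnn1g and Aqp3 were lost with the ZT20 libraries alone and with the 3 shared batches, that of Scnn1g also with the batch in place of the factors of unwanted variation, and that of Aqp3 also in that fit and without the factors (adjusted p up to 0.326, 0.271, 0.122, 0.562 and 0.466).

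In the list of calcium, phosphate and vitamin D, 6 of 18 rose and 2 fell (44.4%, against 13.8% of all genes). Trpv5, the apical calcium channel of the distal tubule, had 16.3, 19.4, 16.3, 19.2 and 15.3 CPM in control mice and 22.7, 22.5, 26.1, 32.0 and 26.3 CPM in cKOt mice, with no overlap and a log2 change of 0.59 (standard error 0.11, edgeR adjusted p = 9.24e-05). Slc8a1, the basolateral sodium-calcium exchanger, and Calb1, the calcium buffer calbindin, rose by 0.68 and 0.50 (edgeR adjusted p = 0.00136 and 0.0203) with overlap in both, and the call of Calb1 was lost without control replicate 5 or cKOt replicate 4 or 5 (adjusted p up to 0.153). Pth1r, the parathyroid hormone receptor, and Pdzk1, a scaffold of apical transporters, were lower, at -0.33 and -0.26 (edgeR adjusted p = 5.4e-05 and 0.000113). The call of Pth1r was lost without the factors of unwanted variation, with the batch in their place, with the ZT20 libraries alone and with the 3 shared batches, where its log2 fold change was -0.19 (adjusted p up to 0.695). Markers of the distal nephron share members with these lists, and their shares also stand beside the 13.8% of all genes. Of 6 distal convoluted tubule markers 2 rose (33.3%), which were Slc12a3 and Calb1 with the lost calls given above. Of 11 collecting duct markers 3 rose and 1 fell (36.4%), and of 7 markers of the thick ascending limb 2 rose and 1 fell (42.9%). The last 3 were Kng2 (0.31, edgeR adjusted p = 0.00042), Cldn16 (0.34, 0.0182, or up to 0.0897 without control replicate 1 or 3 or cKOt replicate 4) and Umod (-0.37, 0.00351), and beside Scnn1b, Scnn1g and Aqp3 the collecting duct had Atp6v0d2 (0.24, 0.0102). With the ZT20 libraries alone Cldn16, Umod and Atp6v0d2 were not called, and Atp6v0d2 was also not called without the factors of unwanted variation or with the batch in their place (adjusted p up to 0.715 over all fits). Their summed levels overlapped between the genotypes, at 2079 to 2422 and 2192 to 3037 CPM in the distal convoluted tubule and 436 to 542 and 466 to 548 CPM in the collecting duct for control and cKOt mice. The part of these segments in the higher transport genes was not tested.

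Of 21 glucose and lactate genes 2 rose and 2 fell (19.0%), a share near the 13.8% of all genes. The glucose and urate transporter genes Slc2a1 and Slc2a9 rose by 0.43 and 0.31 (edgeR adjusted p = 0.000179 and 0.012), the latter not without cKOt replicate 4 or 5 (adjusted p up to 0.0793). Ldhb, a lactate dehydrogenase gene, and Fbp1, an enzyme of gluconeogenesis, were at -0.29 and -0.22 (edgeR adjusted p = 3.36e-06 and 0.0116). The calls of Slc2a1, Slc2a9 and Fbp1 were lost with the ZT20 libraries alone and with the 3 shared batches (adjusted p up to 0.136, 0.59 and 0.388). That of Slc2a1 was also lost without the factors of unwanted variation. The number that rose was 4 without control replicate 1 and 1 without cKOt replicate 5, and the number that fell was 4 without cKOt replicate 1. For amino acid transport 2 of 19 rose and 1 fell (15.8%), which is also near the 13.8% of all genes. Slc6a18, a glycine transporter gene of the proximal tubule, had 725, 544, 765, 726 and 619.5 CPM in control mice and 1132, 1149, 1070.3, 841 and 866 CPM in cKOt mice, a log2 change of 0.58 (standard error 0.087, edgeR adjusted p = 1.21e-06). The other member that rose was Slc7a12, and the one that fell was Slc7a13.

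Of 27 organic ion and drug transporters 11 fell and 3 rose (51.9%, against 13.8% of all genes). Slco1a6 and Slc17a1 fell by 0.63 and 0.58 on the log2 scale (edgeR adjusted p = 3.57e-11 and 1.47e-12), while the efflux pump gene Abcb1b rose by 1.2 (edgeR adjusted p = 3.14e-05). Slco4c1 rose by 1.75 (standard error 0.47, edgeR adjusted p = 0.00696), although its control mice ranged from 3.11 to 20.2 CPM and overlapped with the cKOt mice at 16.0 to 38.9 CPM. Cytochrome P450 and conjugation genes were split into 8 higher and 13 lower of 45 (46.7%, against 13.8% of all genes). The 8 became 5, 5, 4 and 5 without control replicate 5 and cKOt replicates 2, 4 and 5. Beside Cyp2a5, Cyp2a4 and Hao2, Gsta3, a glutathione transferase gene, had 136, 166, 116, 117 and 109.9 CPM in control mice and 39.9, 36.2, 32.4, 31.9 and 32.6 CPM in cKOt mice, a log2 change of -1.89 (standard error 0.12, edgeR adjusted p = 5.92e-18). Cyp2d26 rose (0.57, edgeR adjusted p = 4.74e-05).

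The list of androgen-responsive and sex-biased kidney transcripts mixes genes known to be higher in male and in female mice. It had 15 of 22 members called (68.2%, against 13.8% of all genes), 10 lower and 5 higher. Cyp4b1 and Cyp4a12a, both known to be induced by androgens, were lower, and Slc7a12, known to be higher in females, was higher. The called members were not sorted by the sex in which they are known to be higher, so these genes give no direction for the list. Cyp4b1 had 2855, 4007, 2639.8, 2759 and 3274 CPM in control mice and 1474, 1500.1, 1683, 1665 and 1412 CPM in cKOt mice, with a log2 change of -0.90 (standard error 0.11, edgeR adjusted p = 6e-09). Cndp2, a dipeptidase gene, was also lower (-1.09, edgeR adjusted p = 5.86e-10). The summed level of the list was 42220 to 60290 CPM in control and 32700 to 41760 CPM in cKOt kidneys.

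NRF2 targets and glutathione genes were called in 13 of 18 (72.2%, against 13.8% of all genes), 11 lower and 2 higher, with a median of -0.22. Cat, the gene of catalase, had 1217, 1133, 1038, 1131 and 1079 CPM in control mice and 805, 769, 707, 744 and 699 CPM in cKOt mice, a log2 change of -0.58 (standard error 0.059, edgeR adjusted p = 3.83e-11). Srxn1, the sulfiredoxin gene, fell by 0.40 on the log2 scale (edgeR adjusted p = 1.4e-05). The 2 that rose, Gclc (0.47, edgeR adjusted p = 0.0446) and Mgst1 (0.37, 0.0246), both overlapped, and the call of Gclc was lost in 12 of the 21 other fits, with adjusted p up to 0.276 in them. The call of Mgst1 was lost without control replicate 1 or 5 or cKOt replicate 1, 2 or 5 (adjusted p up to 0.0839).

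Genes of cholesterol and fatty acid synthesis had 2 of 29 higher, Idi1 and Elovl6 (0.81 and 0.35), and 7 lower, with Me1 at -0.30 and Dhcr7 at -0.41 (edgeR adjusted p = 4.61e-07 and 0.000182). In all 31% were called, against 13.8% of all genes. In the cell cycle and p53 list 2 of 26 rose and 4 fell (23.1% called), and the 4 became 2 without control replicate 2 or cKOt replicate 5. Ccnd1, the cyclin D1 gene, had 134, 182, 170.0, 153 and 178 CPM in control mice and 93.0, 74.0, 73.6, 90.8 and 92.0 CPM in cKOt mice, a log2 change of -0.94 (standard error 0.11, edgeR adjusted p = 7.03e-10). Wee1, a kinase gene that the clock is known to act on, was lower (-0.53, edgeR adjusted p = 0.00225) and Cdkn1a, the gene of p21, was higher (0.92, 0.000968), the latter with 11.8 to 40.8 CPM in cKOt mice and 7.12 to 16.3 CPM in control mice. Ccnd3 rose by 0.16 (edgeR adjusted p = 0.0356), a call lost without control replicate 1, 2 or 5 or cKOt replicate 1 or 2 (adjusted p up to 0.174).

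No immediate early gene was called (0 of 22), and log2 fold changes there ran from -0.70 to 0.57. In the same edgeR test 3973 of all 15546 genes had an unadjusted p below 0.05, and of the 22 immediate early genes 3 did. Heat shock and cold-inducible genes had 5 of 17 lower and none higher (29.4% called, against 13.8% of all genes). Hspb8 was at -1.12 and Hspd1 at -0.26 (edgeR adjusted p = 1.48e-05 and 8.38e-05). The 5 became 3, 2, 2 and 2 without control replicates 1 and 5 and cKOt replicates 4 and 5. Of 21 genes of the unfolded protein response 3 fell, among them Asns (-0.70) and Herpud1 (-0.32), a share of 14.3% near the 13.8% of all genes. Without cKOt replicate 4 only 1 was called and Herpud1 was not (adjusted p = 0.0544). Glucocorticoid-responsive genes gave 2 of 13 lower, Tsc22d1 (-0.37) and Mt1 (-0.63), and 1 higher, Cdkn1a (23.1% called). The call of Mt1 was lost without the factors of unwanted variation and with the batch in their place, those of Mt1, Cdkn1a, Hspd1 and Asns with the ZT20 libraries alone, and those of all 5 with the 3 shared batches (adjusted p up to 0.489 for Mt1, 0.0694 for Cdkn1a, 0.205 for Hspd1, 0.484 for Asns and 0.322 for Tsc22d1). Among 26 interferon-inducible and MHC class I genes 1 was called (3.85%), Gbp7 (0.53 and higher, edgeR adjusted p = 0.00327).

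Of 15 genes known to rise in tubular injury, 4 were called, all higher (26.7%, against 5.98% of all genes called higher). They were the 3 fibrinogen chains and Cp, the gene of ceruloplasmin. Fga had 44.8, 28.5, 39.4, 25.1 and 22.7 CPM in control mice and 233, 104, 101, 119.8 and 85.9 CPM in cKOt mice, a log2 change of 1.95 (standard error 0.23, edgeR adjusted p = 4.22e-09), and Fgb had 1.92, 1.29, 1.53, 1.73 and 1.03 CPM and 6.99, 5.21, 4.29, 5.17 and 4.67 CPM, a log2 change of 1.68 (standard error 0.28, edgeR adjusted p = 6.77e-06). Cp was at 56.4, 17.8, 47.9, 34.6 and 35.3 CPM in control mice and 92.5, 85.2, 84.2, 83.0 and 87.9 CPM in cKOt mice (1.11, edgeR adjusted p = 2.48e-09). All 4 separated the genotypes, and the other 11, among them Havcr1, Lcn2 and Vcam1, lay between -0.32 and 0.69 without a call. Of 18 extracellular matrix genes 1 was called (5.56%, against 13.8% of all genes), Timp3, which was lower (-0.25, edgeR adjusted p = 0.0284). Timp3 lost its call without control replicate 1 or cKOt replicate 2, 4 or 5 (adjusted p up to 0.0923).

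For markers of other cell types, the counts stand beside the 13.8% of all genes that were called. With so few members, a list without a call is not set apart from that share. No marker of podocytes (0 of 7), endothelium (0 of 8), fibroblasts and pericytes (0 of 7) or macrophages with MHC class II (0 of 11) was called by edgeR, with 1, 1, 0 and 4 at an unadjusted p below 0.05. Summed levels overlapped in each, for example 345 to 405 CPM in control and 351 to 422 CPM in cKOt kidneys for podocytes, and 291 to 402 and 252 to 365 CPM for macrophages. Of 6 B and T cell genes Ighm rose (1.10, edgeR adjusted p = 0.0246), at 8.7, 7.07, 7.46, 7.42 and 4.79 CPM in control mice and 11.6, 30.9, 5.19, 24.1 and 9.44 CPM in cKOt mice, a call lost without control replicate 3 or 5 or cKOt replicate 2 or 4 (adjusted p up to 0.211), and Cd79b fell (-1.12, 0.0106) at under 1 CPM. Haemoglobin transcripts were near 0, with a sum of 0.112 to 1.61 CPM in control and 0 to 0.186 CPM in cKOt kidneys, and those of adipose and adrenal tissue summed to 4.29 to 16.9 and 2.04 to 13.1 CPM. Of 6 liver-secreted transcripts Alb and Serpina1a fell (-2.40 and -1.41) and Apoc3 rose (0.89), or 50% called.

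**Figure D4:**
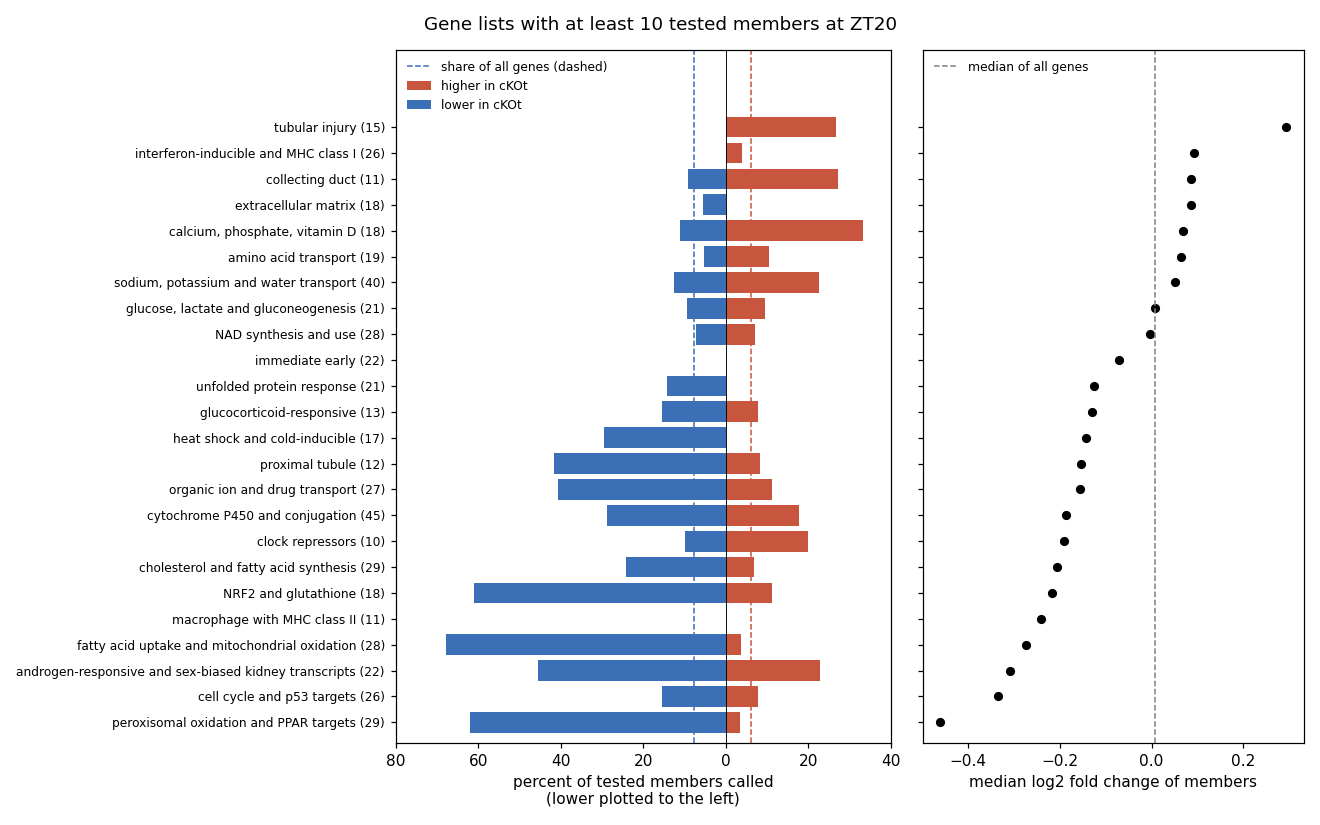
Left, percent of the tested members (number in brackets) called higher or lower in cKOt mice at ZT20 for the lists with at least 10 tested members, with the shares among all genes (5.98% and 7.79%) as dashed lines; right, the median log2 fold change of each list and of all genes (0.0079). The lists of lipid oxidation and of NRF2 and glutathione have the largest shares of lower genes, and immediate early genes and macrophage markers have none.

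To find where ZT20 differed from the rest of the day, the genotype difference at ZT20 was tested against the mean of the differences at the other 5 times, with other mice. By this test 165 genes were called (1.06%), 47 with a more positive difference at ZT20 (0.302%) and 118 with a more negative one (0.759%). These counts depended on single mice and on the covariates, with 245 calls without control replicate 1 (97 more positive), 98 without control replicate 4 (25 more positive), 101 and 108 without cKOt replicate 4 and control replicate 3 (22 and 21 more positive), and 82 without the factors of unwanted variation (21 more positive). Of the 2140 genes called at ZT20, 2093 (97.8%) had the same sign at ZT20 as in that mean and 72 (3.36%) were called in both tests. Of the 165, 93 were not called at ZT20, among them genes whose difference was large at other times and close to 0 here. Values of single genes in this test are from the fit of all libraries and were not checked without single mice.

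Arntl differed in sign between ZT20 and the mean of the other times. Its log2 fold change was -0.96 at ZT20 and averaged 1.05 at the other times (difference -2.01, standard error 0.22, edgeR adjusted p = 7.95e-09). By time it was -0.99 at ZT0, 0.87 at ZT4, 2.78 at ZT8, 2.64 at ZT12, -0.065 at ZT16 and -0.96 at ZT20. Npas2 was higher in cKOt mice at every time, but least so at ZT0 and ZT20, with 1.26, 3.27, 5.62, 5.67, 3.25 and 1.63 from ZT0 to ZT20, which gave a mean of 3.81 without ZT20 (difference -2.18, standard error 0.24, edgeR adjusted p = 7.95e-09). Cry1 also differed less at ZT20 than on average, with 0.60 against 1.75 (difference -1.15, standard error 0.11, edgeR adjusted p = 4.65e-10). Its value at ZT16 was 0.66, close to that at ZT20. For Cry2, with 0.49 at ZT20 and 0.54 in the mean of the others, no such difference was found (difference -0.057, standard error 0.072, edgeR adjusted p = 0.837).

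Nr1d2 was lower at every time and least so at ZT20, where its value of -1.38 stood against -2.11 (difference 0.73, standard error 0.16, edgeR adjusted p = 0.00819). The clearest case among transcripts lower at the other times was Dbp, whose log2 fold change was -3.29 at ZT4, -2.25 at ZT8, -1.82 at ZT12, -1.32 at ZT16, -0.15 at ZT0 and 0.14 at ZT20 (difference 1.91, standard error 0.31, edgeR adjusted p = 0.00011). Per3 and Tef were also lower at ZT20 by less than in the mean of the other times, with -0.42 against -1.52 and -0.17 against -0.65 (difference 1.10, standard error 0.18, edgeR adjusted p = 0.000131 and difference 0.48, standard error 0.10, edgeR adjusted p = 0.00411). At ZT0 Per3 was at -0.79 and Tef at 0.11, so Tef was not lower there.

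Outside the clock, the most negative values among genes called in this test beside Npas2 and Arntl, with 3 predicted genes or pseudogenes skipped, were those of Myc, Slc16a1 and Ypel2. Slc16a1, a monocarboxylate transporter gene, had 137, 131, 133, 109 and 129 CPM in control mice and 116, 115, 144, 123 and 103 CPM in cKOt mice at ZT20, which overlapped. Its log2 fold change was -0.07 against 1.35 in the mean of the other times (difference -1.42, standard error 0.17, edgeR adjusted p = 8.1e-08). Ypel2 was at 0.39 against 1.65 (difference -1.26, standard error 0.15, edgeR adjusted p = 2.62e-08), and its call at ZT20 was lost without any 1 of 5 mice, control replicates 2, 4 and 5 and cKOt replicates 4 and 5 (adjusted p up to 0.109). At ZT0 Ypel2 was at 0.34, close to its value at ZT20. Myc, the transcription factor gene, was at -0.70 against 1.03, and its value at ZT20 was not called (edgeR adjusted p = 0.125). Ppard and Cdkn1a were higher at ZT20 by less than in the mean of the other times (difference -0.86, standard error 0.21, edgeR adjusted p = 0.0255 and difference -1.01, standard error 0.24, edgeR adjusted p = 0.014). At ZT0, however, Ppard was higher by 1.36, less than its 1.71 at ZT20. Cdkn1a was higher by 1.11 at ZT0, close to its 0.92 at ZT20 (standard error 0.21). Slc25a20 and Abcd3 were lower at ZT20 by more than in that mean (difference -0.48, standard error 0.12, edgeR adjusted p = 0.0354 and difference -0.28, standard error 0.067, edgeR adjusted p = 0.0169). Abcd3 was at -0.52 at ZT16, close to its -0.54 at ZT20.

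Among genes called in this test with a mean of at least 1 CPM at ZT20, the 5 most positive values were those of Dbp, Ighm, Serpina3g, Per3 and Sult5a1. Serpina3g, a serine protease inhibitor gene, had 0.847, 0.482, 0.971, 1.06 and 0.871 CPM in control mice and 2.94, 1.95, 1.32, 3.4 and 2.13 CPM in cKOt mice, without overlap (1.3 against -0.10, difference 1.40, standard error 0.32, edgeR adjusted p = 0.0108). Sult5a1, a sulfotransferase gene, was at 0.429 to 1.41 CPM in control and 0.952 to 2.35 CPM in cKOt mice and was not called at ZT20 (edgeR adjusted p = 0.0814), except with 1 factor of unwanted variation or without control replicate 5 or cKOt replicate 2 (adjusted p down to 0.0237). Of the 20 genes with the largest changes at ZT20, none was called in this test by edgeR, and 3 had an unadjusted p below 0.05.

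**Figure D5:**
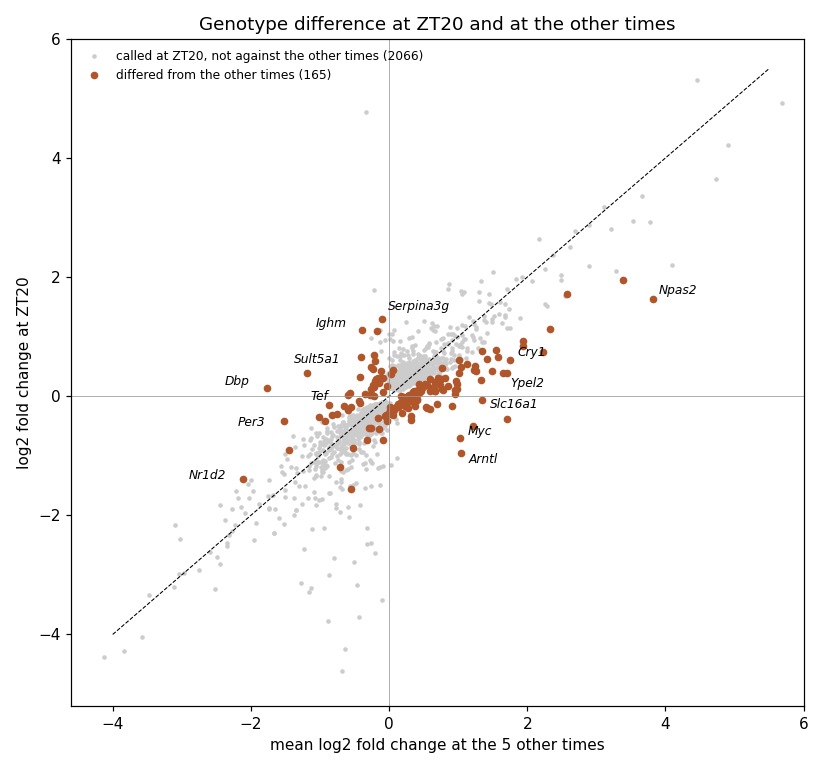
Log2 fold change (cKOt against control) at ZT20 over the mean of the 5 other times, for genes called at ZT20 and for the 165 genes called in the test of ZT20 against the other times (brown); the dashed line marks equal values, and genes with a group at 0 in all mice are left out. Arntl lies at -0.96 against a mean of 1.05 and Npas2 at 1.63 against 3.81, both below the line, and Dbp at 0.14 against -1.77 lies above it.

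With the batch as a term and only the 3 mice of each genotype from shared batches, 189 genes were called, 61 higher and 128 lower, and 182 of them were among the 2140. Of the 2140, 2137 had the same sign in that fit and 3 the opposite one, and 32.3% of its calls were higher, against 43.4% of the 2140. The lower calls of the lists became 8 of 28 for fatty acid oxidation, 8 of 29 for peroxisomes and PPAR targets, and 1 of 18 for NRF2 and glutathione. Arntl (log2 change -1.01, edgeR adjusted p = 0.00997), Npas2 (log2 change 1.62, edgeR adjusted p = 0.0106) and Nr1d2 (log2 change -1.40, edgeR adjusted p = 0.00777) kept their call there, whereas Cry1 (log2 change 0.57, edgeR adjusted p = 0.146) and Cry2 (log2 change 0.49, edgeR adjusted p = 0.186) kept their direction without passing the threshold. Of the genes named here, 63 lost their call in that fit, 24 with the ZT20 libraries alone, 10 without the factors of unwanted variation and 14 with the batch in their place. The calls of Calb1, Ccnd3, Elovl6, Ighm, Mgst1 and Ypel2 were among those lost with the batch in place of the factors. Without control replicate 2, which stood apart, 1840 genes were called.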

How the data were processed

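RNA of 60 kidneys had been sequenced as single reads from stranded, poly(A)-selected libraries. The authors trimmed the reads with cutadapt 1.8, mapped them to GRCm38 with STAR 2.5.3a and counted them per gene with HTSeq 0.9.1, and the deposited values are these raw counts. The annotation release and the strand setting of the counting are not given in the sources used here, so overlapping and antisense genes are uncertain. Rows for reads outside genes (7.81% to 9.82% at ZT20) or ambiguous between genes (1.03% to 1.18%) were left out.

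All 60 libraries and 12 groups entered 1 model in edgeR 4.0.16 (R 4.3.3), with genes of at least 1 CPM in at least 1 library (15546 of 55335), TMM scaling and 2 RUVs factors of unwanted variation as covariates. Genotypes at ZT20, and the difference at ZT20 against the mean of the other times, were tested by quasi-likelihood with Benjamini-Hochberg adjustment and a threshold of 0.05. The same fit was also run on counts simulated with the spread of the real fit, with results not given here. The study fitted limma, which is used here (3.58.1) as an alternative, as are DESeq2 1.42.0, other filters and scalings, batch terms, a replicate block and the removal of each library. Each mouse is 1 library, and libraries of a genotype differed by at least 6.7 times the sampling variance. Replicate numbers did not pair mice across genotypes, and counts limit the precision of transcripts near 1 CPM.

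The members and gene lists were chosen with earlier results of these data known. Named are the clock genes, the 10 largest increases and decreases without overlap (1 and 2 predicted genes or pseudogenes skipped), the 5 largest values in each direction against the other times, up to 2 called members per direction and pathway list by smallest p, called markers, and genes the study names. Genes named from the lists stand for their list and give no test of it. Single genes of 2 lists are not reported here and are left out of the counts of those lists. Promoter windows and sequences are from RefSeq (GRCm38.p6).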

Additional observations from a re-analysis of the deposited data

Results flagged for a closer look

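Of 260 groups of 5 mice over the named genes, 12 held a mouse whose gap to its nearest neighbour was over 0.71 of the whole range, about the 5% that chance gives, and 6 of the 12 were cKOt replicate 1. This mouse was the highest of its group for Nr1d1 (4.61 CPM, others 1.36 to 2.12, gap 0.767), Ucp2 (55.4, others 28.8 to 35.5, 0.748), Ppard (185, others 91.7 to 114, 0.766), Fga (233, others 85.9 to 119.8, 0.769), Alb (2.94, others 0.583 to 1.15, 0.758) and Crat (132, others 109 to 115, 0.73). Control replicate 1 was lowest for Qprt (33.8 CPM, others 43.2 to 47.0, 0.713) and highest for Timp3 (3739, others 3332 to 3427, 0.765). Control replicate 2 was lowest for Aqp6 (20.3 CPM, others 32.0 to 35.5, 0.765) and highest for Slco1a6 (569.5, others 384.5 to 427, 0.771). Control replicate 5 was highest for Slco4c1 (20.2 CPM, others 3.11 to 7.40, 0.749), and cKOt replicate 5 for Ypel2 (71.4, others 63.0 to 64.4, 0.836).

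The genotype difference at ZT20 differed from the mean of the other times, by edgeR's test of that difference, for 17 of the named genes. It was more negative, on the log2 scale, for Npas2 (-2.18), Arntl (-2.01), Myc (-1.73), Slc16a1 (-1.42), Ypel2 (-1.26), Cry1 (-1.15), Cdkn1a (-1.01), Ppard (-0.863), Slc25a20 (-0.484) and Abcd3 (-0.283). It was more positive for Dbp (1.91), Ighm (1.5), Serpina3g (1.4), Per3 (1.1), Sult5a1 (1.06), Nr1d2 (0.729) and Tef (0.484).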

How the results depend on the processing

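The 2140 calls at ZT20 (929 higher, 1211 lower) became 1407 (581 higher) without the RUVs factors, 1419 (583 higher) with the batch in their place, 948 (326 higher, 622 lower) with the ZT20 libraries alone, 189 (61 higher, 128 lower) with the 3 shared batches and a batch term, and 1406 (751 lower) at a fold change of at least 1.2. With DESeq2 size factors, the DESeq2 Wald test, limma, other filters and 1 RUVs factor they were 1774 to 2243. Leaving out 1 mouse gave 1786 to 2071 calls, 763 to 904 higher. Same-numbered mice did not deviate together (r from -0.143 to 0.107), and the replicate block gave 2099 calls. The call of Gclc was the only one of the 130 named genes lost with it.

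The 165 calls against the other times (47 more positive, 118 more negative) became 82 (21 and 61) without the RUVs factors and 81 (24 and 57) with the batch instead. The DESeq2 Wald test gave 77 more positive, and the replicate block 156 in all. Leaving out 1 mouse gave 98 to 245 calls, 21 to 97 more positive and 73 to 148 more negative. The lowest total, 98, came without control replicate 4, followed by 101 without cKOt replicate 4 and 108 without control replicate 3, and 245 came without control replicate 1. More positive calls were 97, 24, 21 and 25 without control replicates 1 to 4, and 22 and 30 without cKOt replicates 4 and 5. The cause was not tested.

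Over 130 named genes, 2529 of 2730 values kept direction and side of the threshold, 166 lost the call (63 of them with the 3 shared batches, which hold fewer mice) and 14 gained it. Changes of sign touched only 4 uncalled genes. Bhlhe41 was at 0.034 without RUVs factors, 0.040 with 1 factor, 0.033 with ZT20 libraries alone and 0.011 with the 3 batches, and Nmrk1 at -0.056, -0.036, -0.056 and -0.13 in the same fits and -0.071 with the batch in place of the factors. Leaving out 1 mouse gave -0.22 to 0.031 for Bhlhe41, -0.052 to 0.080 for Nmrk1, -0.085 to 0.084 for Arntl2 and -0.0028 to 0.30 for Per2.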
